A study of Mus musculus with 12 samples.

Results

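The scaffold proteins of the excitatory postsynaptic density were examined through 10 genes out of the 19775 measured. The choice was by name from their families and not by expression, with earlier results of these data known. They were the PSD-95 family genes Dlg1, Dlg2, Dlg3 and Dlg4, the SAPAP family genes Dlgap1, Dlgap2 and Dlgap3, and the Shank family genes Shank1, Shank2 and Shank3. Brains of 12 male C57BL/6N mice at about postnatal day 120, labelled as whole brain, were sequenced, 4 per genotype: Slc6a20a+/- mice (HT), Slc6a20a-/- mice (HM) and their wild-type controls (WT). The mutation removes exon 3 of Slc6a20a, a transporter of proline and glycine, and the mice came from crosses between HT parents. Each value below is a normalized count, the estimated number of reads of a gene after scaling for sequencing depth, from 1 brain. The comparisons asked whether the RNA of the scaffold genes differed between these genotypes.

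The postsynaptic density is a protein layer under the membrane of excitatory synapses, in which scaffold proteins stack. PSD-95 family proteins hold NMDA receptors and, through auxiliary subunits, AMPA receptors at the membrane. Their guanylate kinase-like domain binds SAPAP proteins, and SAPAP proteins bind the PDZ domain of Shank proteins, which reach Homer and the actin cytoskeleton below. NMDA receptors need glycine or D-serine beside glutamate to open.

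Slc6a20a itself lay between 584 and 750.5 normalized counts in the WT mice, between 310.4 and 372 in the HT mice and between 55.6 and 76.5 in the HM mice, so that every mouse matched its label. Summed normalized counts ran from 33285000 to 33749000 per mouse, totals after scaling, and the depth before scaling is unknown. WT replicate 1 stood apart from the other mice: it held the lowest value of the 12 mice for 14.5% of all genes and the highest for 14.9%, the largest share of any mouse on both sides. Fold changes that it moved by over 1.5 times are given with and without it for the scaffold genes. The label of whole brain was checked against marker genes: Slc17a7, the glutamate transporter of cortical excitatory synapses, averaged 33175 normalized counts, whereas the cerebellar granule and Purkinje cell genes Cbln3, Pcp2 and Fat2 averaged between 11.2 and 18.8. These cerebellar transcripts were thus near 0 in all 3 genotypes, while the 4 other cerebellar markers measured, which other regions also express, averaged between 275 and 1762. Gabra6, another cerebellar granule cell marker on the list, had no entry among the genes matched by name. How much cerebellum the sequenced tissue held was not tested. In RNA from bulk tissue, fewer cells of a type and less RNA per cell cannot be told apart. The p-values of the genotype comparisons set a difference between groups against the spread among single mice of a genotype, 4 per genotype.

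None of the 10 scaffold genes passed the test in any comparison. By limma with Benjamini-Hochberg (BH) adjustment over all genes, 0 of 10 were called in HT against WT, where 0.00555% of the 18004 genes tested were called, and 0 of 10 in HM against WT, where 0.0111% were. HM against HT also gave 0 of 10, beside 0.00556% of 17986 genes. At an unadjusted p under 0.05, 1 of 10 was past the threshold in HT against WT (6.42% of all genes), 0 in HM against WT (6.99%) and 0 in HM against HT (3.74%). With calls this rare among all genes, a count of 0 among 10 does not set the scaffold genes apart. What the intervals give is a bound on the size: apart from Dlgap2, every 95% confidence interval lay between -0.11 and 0.20 on the log2 scale in both comparisons with WT, and between -0.11 and 0.12 in HM against HT. For Dlgap2 the intervals reached 0.39, 0.33 and -0.19 in the same order.

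Whether the mice of 1 genotype lay wholly on one side of another was also counted. In HT against WT, 0 of 10 scaffold genes had all HT values above the WT values (1.82% of all genes tested did) and 0 had them all below (1.91%). In HM against WT, 1 had all HM values above (2.41%) and 0 below (1.81%). In HM against HT, 1 had all HM values above (1.24%) and 0 below (1.14%).

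**Figure D1:**
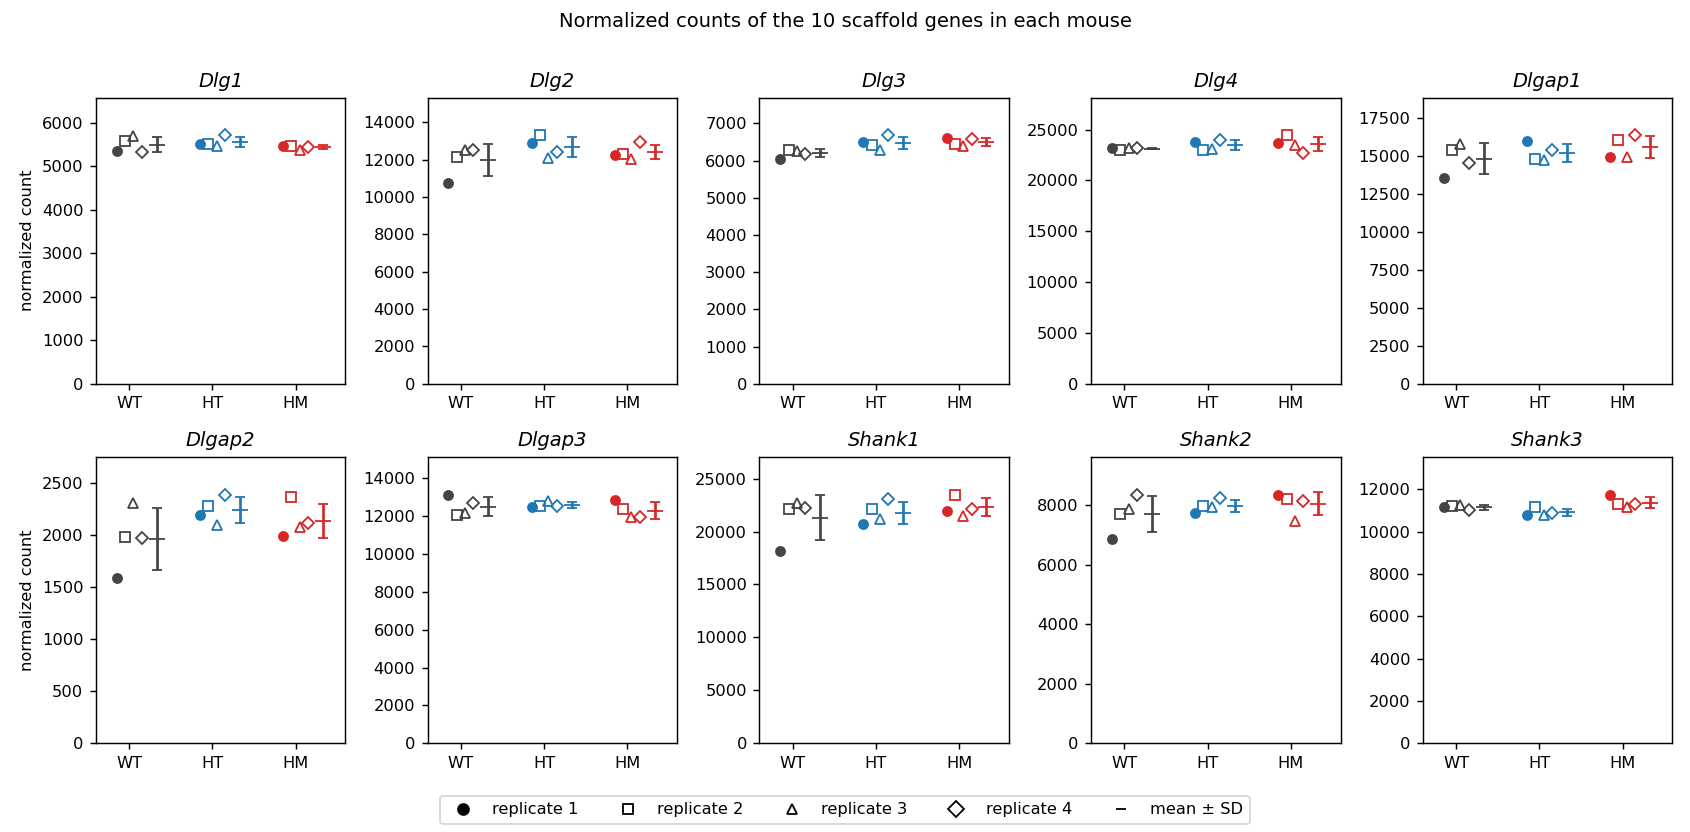
Normalized counts (vertical axes, from 0) of the 10 scaffold genes in each of the 12 mice by genotype, with replicate numbers as symbols and the mean ± SD beside each group. The genotypes overlap in nearly every panel, and WT replicate 1 (filled grey circle) is low in Dlg2, Dlgap1, Dlgap2, Shank1 and Shank2.

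Among the PSD-95 family, Dlg4 encodes PSD-95 itself, the most abundant scaffold protein of the layer. Its values were 23146, 23025, 23229 and 23139 in the WT mice, 23794, 22978, 23107 and 23959 in the HT mice, and 23657, 24468, 23451 and 22731 in the HM mice. The WT mice lay close together (SD 83.8 around a mean of 23135, n = 4), and both mutant groups spread to either side of them. The log2 fold change was 0.020 in HT against WT (95% interval -0.052 to 0.092) and 0.027 in HM against WT (-0.044 to 0.097). Dlg4 lies on chromosome 11 from 70016942 to 70047522 (GRCm38, plus strand), and no other annotated gene overlaps it.

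Dlg3 encodes SAP102, a relative of PSD-95 known for its part in early synapse development, and lies on chromosome X from 100767722 to 100818410. It was measured at 6045, 6297, 6255 and 6185 in the WT mice. The HT mice had 6489, 6419, 6297 and 6689, and the HM mice 6608, 6436, 6394 and 6571. Every HM mouse was above every WT mouse, while HT replicate 3 lay level with the highest WT mouse. Of the 10 scaffold genes, Dlg3 was the 1 whose HM values all exceeded its WT values, a pattern shown by 2.41% of all genes tested. The mean was 6196 ± 111 in WT and 6502 ± 104 in HM (SD, n = 4 each), or 105% of WT. In the fit across all genes the difference did not pass, with a log2 fold change of 0.070 (SE 0.033, 95% interval -0.0029 to 0.14, adjusted p = 0.724). HT against WT gave 0.063 (-0.016 to 0.14, adjusted p = 0.823), with the same WT mice as the comparison group. Left-out mice moved the HM value only between 0.058 and 0.078.

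Because Dlg3 was the gene with this separation, the 250 bases before its RefSeq transcript starts are shown (GRCm38.p6, plus strand). Both starts lie within the gene as GENCODE M21 draws it, downstream of its first transcript start, and neither window overlaps an annotated exon. Capitals mark the GC box GGGCGG, read here on the opposite strand as CCGCCC. The motifs searched on both strands were GGGCGG, the cyclic AMP response element TGACGTCA, the TATA box TATAAA and the E box CACGTG.
Dlg3 chrX:100774245-100774494: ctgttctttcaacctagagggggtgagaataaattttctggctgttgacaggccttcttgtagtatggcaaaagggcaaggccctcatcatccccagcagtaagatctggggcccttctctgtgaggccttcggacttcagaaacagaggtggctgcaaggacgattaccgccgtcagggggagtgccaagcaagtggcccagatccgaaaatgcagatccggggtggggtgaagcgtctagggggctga
Dlg3 chrX:100777021-100777270: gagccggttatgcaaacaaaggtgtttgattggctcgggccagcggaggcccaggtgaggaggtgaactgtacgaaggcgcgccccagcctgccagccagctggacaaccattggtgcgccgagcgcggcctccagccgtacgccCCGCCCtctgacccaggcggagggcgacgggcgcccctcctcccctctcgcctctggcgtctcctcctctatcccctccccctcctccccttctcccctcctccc
The first window held 55.2% GC and 0 of the 4 motifs, and the second held 69.2% GC, 19 CpG and 1 GC box. Among 32851 windows of this length before annotated starts, 32.74% held a GC box, 1.546% the cyclic AMP response element, 12.37% a TATA box and 6.021% the E box. The median GC content of those windows was 52.4%, so the second start lies in a window above the upper quartile of 61.2%. A match of letters is a description and not evidence of a bound factor.

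Dlg2 encodes PSD-93, a close relative that also clusters receptors and channels. Its WT values of 10741, 12149, 12499 and 12539 were pulled down by replicate 1, and the HT mice (12085 to 13330) and HM mice (12059 to 12933) overlapped the other three WT mice. The log2 fold change in HT against WT was 0.085 (95% interval -0.028 to 0.20) and 0.033 without WT replicate 1. In HM against WT it was 0.052, and it was -5.4e-05 without that mouse. Dlg2 is the longest of the genes, from 90476672 to 92449247 on chromosome 7, a span of 1972576 bp that overlaps 22 annotated genes on its own strand and 8 on the other.

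Dlg1 encodes SAP97, which is found in axons and along trafficking routes as well as at synapses. It had a WT mean of 5498 ± 176, an HT mean of 5558 ± 115 and an HM mean of 5444 ± 53.1 (SD, n = 4). Its log2 fold changes were 0.016 in HT and -0.014 in HM against WT, with intervals from -0.067 to 0.099 and from -0.092 to 0.064. Without WT replicate 1 they were 0.0044 and -0.025.

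The SAPAP proteins link PSD-95 to Shank. Dlgap2 had the lowest level and the widest spread of the 10 genes, with a coefficient of variation of 15.0% among the WT mice. It was measured at 1592, 1979, 2313 and 1976 in the WT mice and at 2197, 2278, 2102 and 2390 in the HT mice. In the HM mice it was measured at 1988, 2367, 2081 and 2121. The WT range contained the lower HT values and nearly the whole HM range, with WT replicate 1 lowest of all. In HT against WT the log2 fold change was 0.20 (SE 0.088, 95% interval 0.011 to 0.39). Its unadjusted p of 0.0399 made it the 1 scaffold gene under 0.05, and the BH-adjusted p was 0.770. Without WT replicate 1 the value was 0.10 and the unadjusted p 0.131. HM against WT gave 0.13 (-0.069 to 0.33), or 0.035 without that mouse, and HM against HT gave -0.069 (-0.19 to 0.055). Over each mouse left out in turn, the HT value against WT ran from 0.10 to 0.28, with unadjusted limma p-values from 0.0030 to 0.131. The HM value against WT ran from 0.035 to 0.21, with unadjusted p-values from 0.0238 to 0.628.

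Dlgap1, the best studied member of its family, was measured at 13514, 15381, 15801 and 14506 in the WT mice. The HT mice ranged from 14696 to 15968 and the HM mice from 14937 to 16368, so the groups overlapped and WT replicate 1 was again lowest. The log2 fold change was 0.041 in HT (95% interval -0.067 to 0.15) and 0.074 in HM (-0.036 to 0.18). Without that mouse the HT value was -0.0022 and the HM value 0.031.

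Dlgap3, a gene strongly expressed in the striatum and known from mutant mice that groom compulsively, went the other way in WT replicate 1. Its WT values were 13142, 12044, 12175 and 12671, with replicate 1 highest of all 12 mice. The HT mice had 12505, 12522, 12799 and 12539 and the HM mice 12863, 12394, 11973 and 11970. The HT values lay inside the WT range and the HM values reached slightly below it. Log2 fold changes against WT were 0.010 in HT and -0.024 in HM, with intervals from -0.071 to 0.092 and from -0.11 to 0.061. Without WT replicate 1 they were 0.034 and 8.3e-05. The summed level of 8 striatal marker genes ran from 28257 to 29507 in WT, from 28614 to 30883 in HT and from 27312 to 28796 in HM, with every marker above 0 in all mice. The part of such differences in Dlgap3 was not tested.

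Shank proteins form the deeper layer, where they bind SAPAP, Homer and actin regulators. Shank3 lies on chromosome 15 from 89499623 to 89560261, and its loss is a known cause of autism spectrum disorder. The WT mice had 11184, 11193, 11283 and 11004, the HT mice 10812, 11162, 10769 and 10901, and the HM mice 11756, 11295, 11169 and 11287. Every HM mouse was above every HT mouse, by a gap that was small at its nearest point, 11169 against 11162. Shank3 was the 1 scaffold gene with this separation, which 1.24% of all genes tested showed. Neither mutant group separated from WT. HM against HT gave a log2 fold change of 0.060 (SE 0.030, 95% interval -0.0039 to 0.12), an unadjusted p of 0.0635 and a BH-adjusted p of 1.00. Against WT the values were -0.033 in HT (-0.11 to 0.038) and 0.027 in HM (-0.043 to 0.096).

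The 250 bases before the RefSeq start of Shank3 are shown because this gene separated the mutant groups. The window touches no annotated exon of Shank3, and exons of other genes were not searched there. Capitals mark the GC boxes, as above.
Shank3 chr15:89499358-89499607: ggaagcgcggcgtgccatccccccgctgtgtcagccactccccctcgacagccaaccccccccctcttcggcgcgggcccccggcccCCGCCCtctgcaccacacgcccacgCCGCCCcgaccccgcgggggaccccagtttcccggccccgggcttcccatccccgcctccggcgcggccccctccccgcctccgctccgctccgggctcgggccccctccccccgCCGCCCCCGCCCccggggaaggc
It held 82.4% GC, 31 CpG and 4 GC boxes, all read as CCGCCC on the plus strand and the last pair directly adjacent, and none of the other motifs. RefSeq held windows for 7 of the 10 genes, 16 in all, and this one had the highest GC content among them.

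Shank1 was measured at 18171, 22167, 22696 and 22258 in the WT mice. The HT mice had 20727, 22159, 21190 and 23042 and the HM mice 21972, 23491, 21510 and 22163. WT replicate 1 lay far below the other three WT mice, and all other mice overlapped. The log2 fold change in HT against WT was 0.035 (95% interval -0.10 to 0.17) with it and -0.040 (-0.13 to 0.048) without it. In HM it was 0.069 (-0.066 to 0.20) with it and -0.0065 (-0.082 to 0.069) without it, and the intervals narrowed.

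Shank2 had the lowest normalized count of its family. Its WT values were 6874, 7710, 7874 and 8342, its HT values ran from 7741 to 8244 and its HM values from 7484 to 8359. WT replicate 1 was again the lowest of the 12 mice. HT against WT gave 0.053 (95% interval -0.061 to 0.17), or -2.9e-04 without that mouse, and HM against WT gave 0.066 (-0.055 to 0.19), or 0.013 without it.

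**Figure D2:**
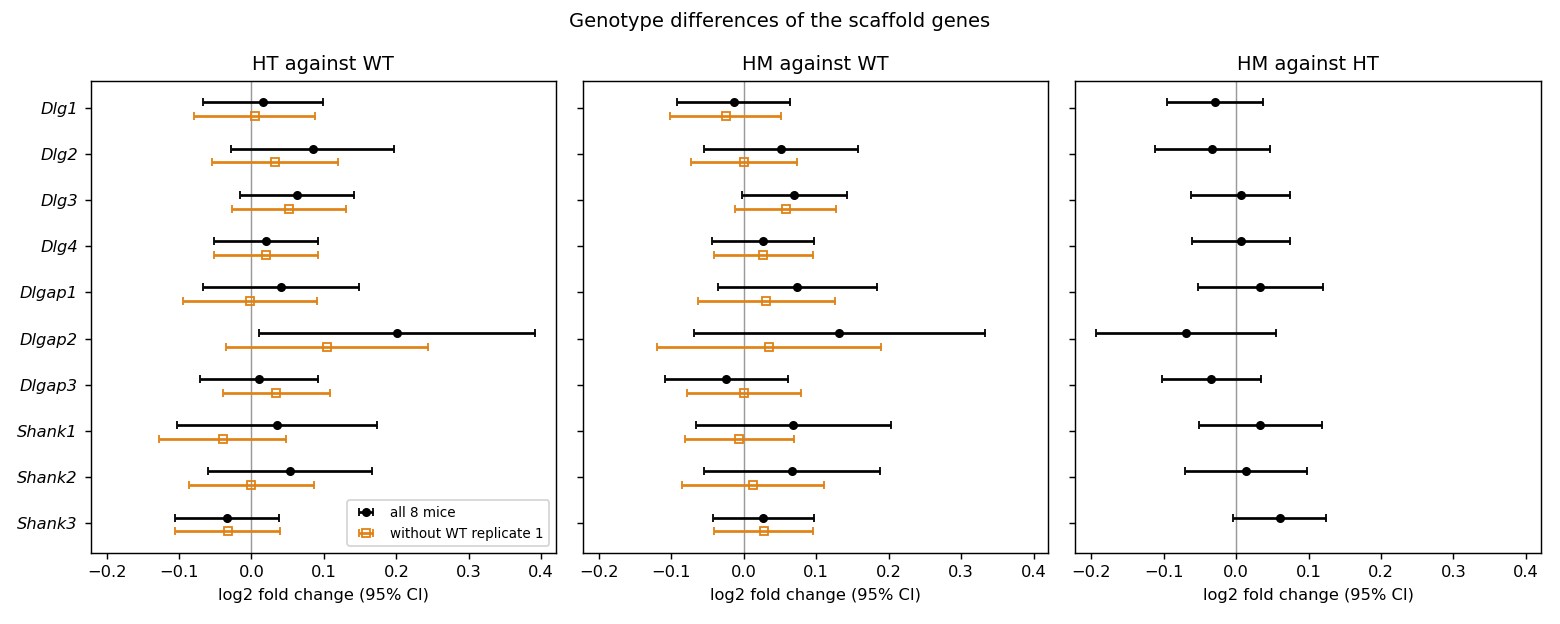
Log2 fold changes (horizontal axes) of the 10 scaffold genes with 95% confidence intervals in the 3 comparisons, from all 8 mice (filled circles) and without WT replicate 1 (open squares). Of the 30 intervals from all mice, that of Dlgap2 in HT against WT is the 1 that leaves out 0, and it includes 0 without WT replicate 1.

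Taking the 10 genes as a list, 9 had a positive log2 fold change in HT against WT, with a median of 0.038, and 8 in HM against WT, with a median of 0.059. Over all genes tested, 50.0% and 49.8% were positive and the medians were 5.1e-05 and -2.9e-04. Both comparisons share the WT mice, so these are not separate observations. Without WT replicate 1, 6 of 10 were positive in HT (median 0.012) and 7 of 10 in HM (median 0.020). Without WT replicate 3 the medians were the largest of any mouse left out, 0.066 in HT (8 of 10 positive) and 0.074 in HM (9 of 10). In HM against HT, which does not use the WT mice, 6 of 10 were positive (median 0.0068). With WT replicate 1 kept, quantile normalization gave 6 of 10 in both comparisons with WT (medians 0.0011 in HT and 0.030 in HM), and so did the correction for length and GC content (medians 0.028 and 0.014). The count of positive values thus moved in either direction with the WT mouse left out, and it moved with the scaling.

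WT replicate 1 held the lowest value of the 12 mice for 6 of the 10 genes, Dlg2, Dlg3, Dlgap1, Dlgap2, Shank1 and Shank2, and the highest for Dlgap3. Its median log2 deviation from the 12-mouse mean was -0.12 over the scaffold genes and 0.0029 over all genes. No other mouse was lowest for more than 2 of them. In the same mouse the median deviation over all genes went down with the length of the exons, from 0.092 in the shortest quartile to -0.071 in the longest. It went up with GC content, from -0.022 in the lowest quartile to 0.044 in the highest. The 10 scaffold genes have exon lengths from 4521 bp (Dlgap3) to 17890 bp (Dlgap1), and the longest quartile of all genes began at 6305 bp. Markers of blood cells were also high in this mouse (mean log2 deviation 0.91), as they were in HM replicates 1 and 2 (1.39 and 0.81), whose scaffold medians were 0.016 and 0.037. In WT replicate 1 the neuronal markers were near the mean (-0.0056). The part of length, GC content or blood in the scaffold values was not tested, apart from the correction for length and GC given under the processing alternatives.

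**Figure D3:**
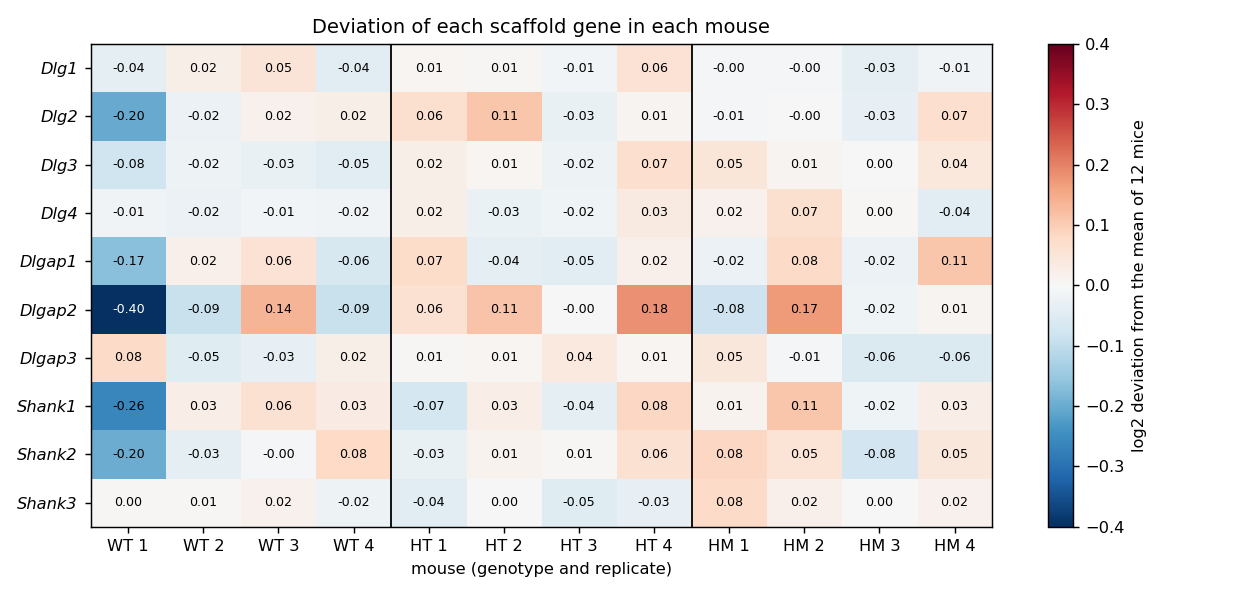
Deviation of each scaffold gene in each mouse from its mean over the 12 mice, in log2 units (color scale from -0.4 to 0.4, values printed in the cells), with mice in columns by genotype. The column of WT replicate 1 is negative for most genes, down to -0.40 in Dlgap2, and close to 0 for Dlg4 and Shank3.

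Levels between genes were compared per kilobase (kb) of exon, since longer transcripts give more reads. Per kb of all annotated exons, Dlgap3 had the highest mean level (2757 normalized counts per kb over the 12 mice), followed by Shank1 (2073), Dlg4 (1765), Shank3 (1214), Dlg3 (1094), Dlgap1 (849), Dlg2 (759), Shank2 (734), Dlg1 (512) and Dlgap2 (344). Neighbors in this order kept their order in all 12 mice, except Shank1 over Dlg4 in 11 of 12 and Dlg2 over Shank2 in 8 of 12, a pair that did not differ beyond its spread. The order depended on the length used. Per kb of the longest coding transcript, Dlg4 came first (3698) and Dlgap3 second (2963), since the annotated exons of Dlg4 add up to 13251 bp and its longest coding transcript to 6326 bp. Dlgap2 came last by both lengths. Which transcripts these brains used was not measured here.

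**Figure D4:**
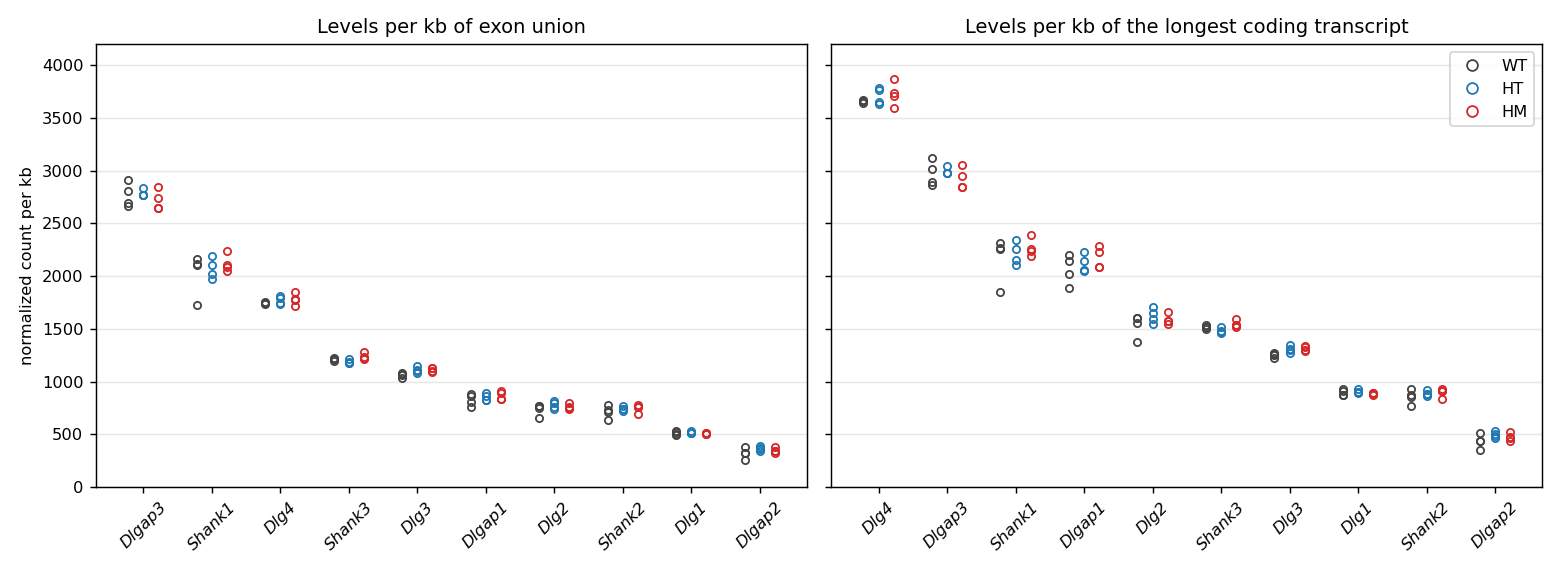
Normalized counts per kb of exon (vertical axes) for the 10 scaffold genes, 1 circle per mouse colored by genotype, ordered by the mean over 12 mice, with all annotated exons (left) or the longest coding transcript (right) as the length. Dlgap3 leads on the left and Dlg4 on the right, and the 3 genotypes lie close together within each gene.

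The share of each gene in its family was compared between genotypes as well. Of the PSD-95 family level per kb, Dlg4 made up 43.1% in the WT mice, 42.4% in the HT mice and 42.8% in the HM mice, Dlg3 26.2%, 26.5% and 26.7%, Dlg2 18.1%, 18.7% and 18.3%, and Dlg1 12.6%, 12.4% and 12.2%. Of the summed level of the 3 SAPAP genes examined, Dlgap3 made up 70.7%, 69.6% and 69.1%, Dlgap1 21.1%, 21.2% and 22.1%, and Dlgap2 8.16%, 9.11% and 8.83%, in the same order. Dlgap4, a further SAPAP gene, was not part of this sum, so these are not shares of the whole family. Its mean normalized counts were 9397 in WT, 9525 in HT and 9703.5 in HM. Of the Shank family level, Shank1 made up 51.1%, 51.8% and 51.6%, Shank3 30.8%, 29.7% and 30.2%, and Shank2 18.1%, 18.5% and 18.2%. Of 30 two-sided exact permutation tests of these shares, 0 gave a p under 0.05 before adjustment, and the smallest BH-adjusted p was 0.643. The smallest p that 4 against 4 mice allow is 0.0286, so a single share could not have passed the adjustment. Apart from Dlg3 and Dlg4, the shares spread most in WT, where replicate 1 had a Dlgap3 share of 74.1% and a Shank1 share of 48.2%. The Dlg3 and Dlg4 shares spread most in HM (SD 0.46 and 1.00, against 0.21 and 0.85 in WT).

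**Figure D5:**
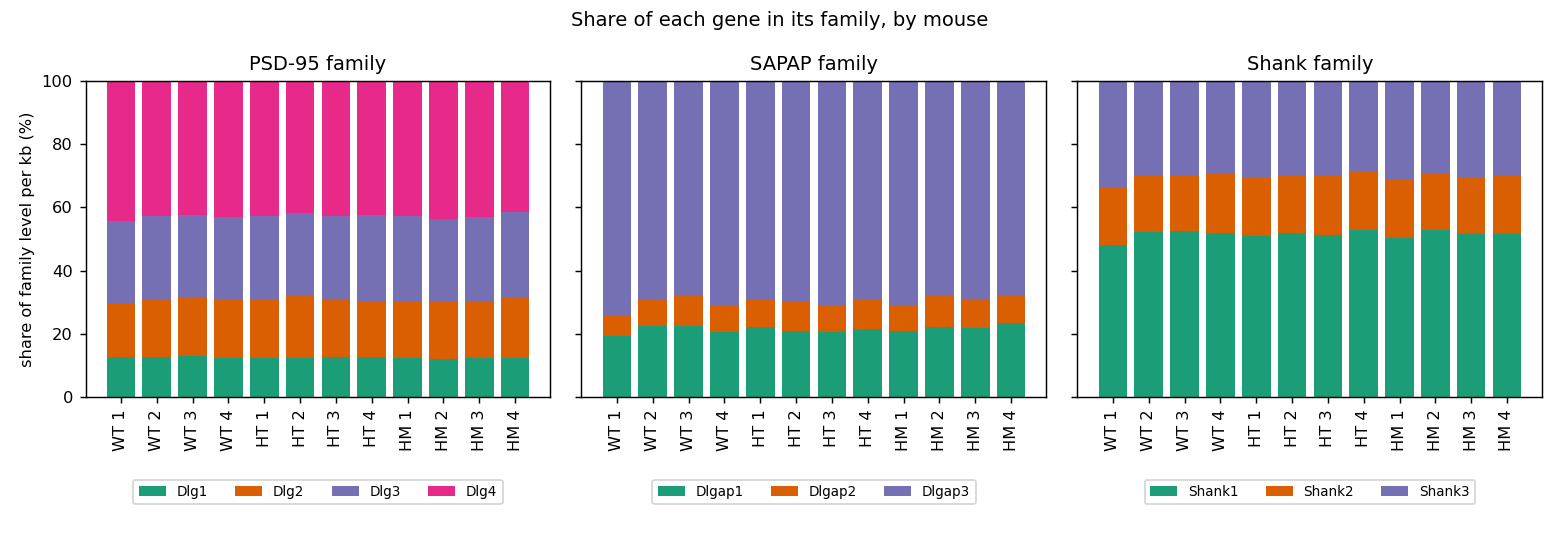
Share (%) of each gene in the summed level per kb of the genes shown for its family, 1 bar per mouse, for the PSD-95, SAPAP (without Dlgap4) and Shank families. WT replicate 1 shows the highest share of Dlgap3 (74.1%) and the lowest of Shank1 (48.2%).

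After subtracting genotype means, the 45 pairs of scaffold genes had a median Pearson r of 0.313 over the 12 mice, from -0.715 (Dlgap1 with Dlgap3) to 0.900 (Dlgap2 with Shank1). Of the 45, 35 were positive and 0 passed BH adjustment of the permutation p. The pair Dlgap2 and Shank1 came nearest, with permutation p-values of 0.00157 for r and 0.00131 for a Spearman rho of 0.895, and BH-adjusted p-values of 0.0706 for r and 0.0589 for rho. With the 2 mice most distant from the Dlgap2 median left out its r was 0.793, and it was 0.753 without WT replicate 1. Without that mouse the median r of all pairs was 0.217, and again 0 passed. The genes most like the mean profile of the scaffold genes over the 12 mice, among 12509 genes searched, were Nkain3 (r = 0.975), Epha6 (0.964), Rreb1 (0.962), Usp9x (0.962) and Helz (0.955). Without WT replicate 1 their r ran from 0.902 to 0.947. These are the highest of many correlations and are given as a description.

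The other genes of the postsynaptic density, 42 in 4 lists, were read in the same fits. In each of the 3 comparisons 0 of 42 passed, with smallest adjusted p-values of 0.750, 0.655 and 1.00. At an unadjusted p under 0.05, 5 were higher (3.16% of all genes were) and 1 lower (3.26%) in HT against WT, 3 higher (3.93%) and 0 lower (3.05%) in HM against WT, and 1 higher (2.11%) and 0 lower (1.62%) in HM against HT. The median log2 fold changes were 0.030, 0.049 and 6.7e-04. The unadjusted counts were not stable. In either direction, HT against WT had 6 genes with all mice and 2 without WT replicate 1 or without HT replicate 4. HM against WT had 3 with all mice, 1 without HM replicate 2 and 7 without WT replicate 3.

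Among the 13 other scaffolds, Magi2, a scaffold that binds SAPAP proteins and neuroligins, had the smallest p in both comparisons with WT. It was measured at 3124, 3679, 3678 and 3552 in the WT mice, 4101, 3987, 3815 and 4175 in the HT mice, and 3800, 3817, 3916 and 4031 in the HM mice. Both mutant groups lay wholly above WT, as did 1.82% of all genes in HT and 2.41% in HM. The log2 fold changes were 0.20 in HT (SE 0.055, adjusted p = 0.750) and 0.15 in HM (SE 0.053, adjusted p = 0.655), and HM against HT gave -0.046. Without 1 mouse at a time they ran from 0.14 to 0.22 and from 0.097 to 0.18. Cnksr2, which binds PSD-95 family proteins, had 0.15 in HT (SE 0.053, adjusted p = 0.768), and Homer2 had 0.11 in HM (SE 0.047, adjusted p = 0.700). Dlgap4, the SAPAP gene outside the 10, had higher values in every HM mouse (9542 to 9861) than in any WT mouse (9202 to 9500), a pattern shown by 2.41% of all genes tested. Its log2 fold change was 0.046 (95% interval -0.022 to 0.11). Homer1, the main link between Shank and metabotropic glutamate receptors, had -0.060 in HT and -0.030 in HM. With 1 mouse left out, its HT value ran from -0.10 to -0.017.

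Among the 10 genes whose proteins bind PSD-95, Nos1, the neuronal nitric oxide synthase, had 0.18 in HT and 0.23 in HM against WT, with unadjusted p-values of 0.0408 and 0.0278. Its WT values again included a low replicate 1 (1870, against 2362 to 2560 in the others), and without it the values were 0.082 in HT and 0.13 in HM. Leaving out single mice moved them between 0.082 and 0.23 in HT and between 0.13 and 0.30 in HM, and the unadjusted p rose to as much as 0.0943 in HT and 0.0840 in HM. Lgi1, the secreted ligand that PSD-95 holds through Adam22, had 0.093 in HT (adjusted p = 0.770). Among the 9 genes whose proteins bind Shank or SAPAP, Sharpin had -0.22 in HT (adjusted p = 0.770) and Abi1 -0.072 (adjusted p = 0.833). With 1 mouse left out, the Sharpin value ran from -0.29 (without WT replicate 4) to -0.14 (without HT replicate 2). Among the 10 enzymes that modify PSD-95, 0 had an unadjusted p under 0.05. Abhd17a, which removes palmitate from PSD-95, had -0.11 in both HT and HM against WT (unadjusted p = 0.0737 and 0.0766), and -0.053 and -0.050 without WT replicate 1, which at 4415 lay above the other WT mice (3621 to 3941). Mdm2, a ubiquitin ligase, had -0.11 and Zdhhc2, a palmitoyltransferase of PSD-95, had -0.092 in HM against WT. The Mdm2 values ran from 1574 to 1880 in WT, with replicate 4 the highest of all mice, and from 1525 to 1650 in HM. Of the 42 genes, 2 had all HT values above the WT values, Magi2 and Abhd17c, a relative of Abhd17a (807 to 844 against 765 to 801), and 0 had them all below, beside 1.82% and 1.91% of all genes tested. In HM against WT, 2 of the 42 had all HM values above, Magi2 and Dlgap4 (2.41% of all genes), and 0 below (1.81%). In HM against HT, 0 had all HM values above (1.24%) and 0 below (1.14%).

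Neuronal marker genes bear on all of these RNAs. The summed level of 8 of them ran from 204880 to 217120 in WT, from 211290 to 223000 in HT and from 216790 to 222580 in HM. Sums of 8 olfactory bulb markers were higher in the HM mice (2259 to 2678) than in the WT (1937 to 2158) and HT mice (1762 to 2089), without overlap. Calb2, with a mean of 1486, made up most of these sums. Its HM values (1532 to 1693) overlapped those of WT (1350 to 1548) and HT (1333 to 1548). As a mean log2 deviation, which weights each marker equally, WT replicate 1 (0.30) lay above HM replicate 2 (0.12). The other WT mice and all HT mice lay below every HM mouse on this measure. No marker of either list was at 0 in any mouse. The part of these shifts in the values of Dlg3, Shank3 or Magi2 was not tested. The preparation kit does not mark the strand of a read, and 7 of the 10 scaffold genes overlap a gene annotated on the other strand, all but Dlg3, Dlg4 and Dlgap3. Reads from such a partner cannot be told apart from their own where exons overlap, and reads shared between members of a family were not measured.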

How the data were processed

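RNA of mouse brain, whole brain by its label, was read in pairs by the authors, who quantified it against GRCm38 with Salmon 1.1.0, summed estimates to genes and normalized them with DESeq2 1.30.1 (versions from the submitters' processing notes). The deposited signal is this normalized count of 19775 genes in 12 mice. At most 40.0% of low values were whole multiples of a read (within 0.05), so reads were not recovered and count models were not used. Genotypes were compared pairwise with limma 3.58.1 (R 4.3.3), with a trended variance prior, on log2(normalized count + 1), for genes whose mean over the 8 mice compared reached 10, with BH adjustment over all genes and a threshold of 0.05. Fold changes are on that scale. GENCODE M21 matched 19758 identifiers. Columns marked as knockout were read as HM. Further steps used Python 3.11.15, scipy 1.17.1 and pandas 2.3.3. The fit was tested on simulated data.

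The scaffold genes and lists were chosen with earlier results of these data known. Of the other postsynaptic genes, the rule named the 3 with the smallest unadjusted p in each direction of each comparison, any past the adjusted threshold, Dlgap4 and Homer1, and, from all protein-coding genes whose mean reached 100 normalized counts, the 5 most like the scaffold profile. Of the genes this rule named, 1 is not reported here. Nos1 in HT and Abhd17c were named beside a count after their values were seen. Alternatives were a pseudocount of 0.1, other filters, fits of all mice, and blocks for replicate or for the number in the column name. Others were a loess correction for length and GC (span 0.4), quantile normalization, a prior without trend and leaving out each mouse.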

Additional observations from a re-analysis of the deposited data

Results flagged for a closer look

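Each of the 10 scaffold genes was checked for a mouse far from the other 3 of its genotype, by the gap to its nearest neighbor over the range of the group. Chance marks about 1 in 20 groups, and 2 of 30 were marked. Shank1 in WT replicate 1 was 18171 normalized counts, against 22167 in the nearest WT mouse, a gap of 0.883 of the range. Dlgap3 in HT replicate 3 was 12799, against 12539 in the nearest HT mouse, a gap of 0.887 of a range that was narrow, with a coefficient of variation of 1.11% among the HT mice.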

How the results depend on the processing

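In every alternative and with each mouse left out in turn, 0 of 10 scaffold genes and 0 of 42 other postsynaptic genes passed the adjusted threshold in each comparison, so these counts ranged from 0 to 0. The smallest adjusted p of a scaffold gene was 0.593 with all mice kept and 0.622 with 1 left out. The fold change of Slc6a20a in HT (-0.97) lost its call when the variance prior had no trend (adjusted p = 0.145). Of 270 values of scaffold genes that kept every mouse, 13 changed sign, and of 240 that left 1 out, 16 did. All sign changes were small, and the cause was not tested. The other filters, the fit of all mice, the replicate block and the prior without trend cannot change a fold change.

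Correction for length and GC content gave, in HT against WT, -0.0073 for Dlgap1, -0.024 for Dlg4 and -0.021 for Dlg1, and in HM against WT -0.019 for Dlg4 and -6.8e-04 for Dlg2. The scaffold medians were then 0.028 and 0.014. Quantile normalization gave, in HT, -0.018 for Dlg4, -0.0041 for Shank1, -0.030 for Dlgap3 and -0.0020 for Dlgap4, and in HM -0.0048 for Dlg4 and -0.014 for Shank3, with 6 of 10 scaffold genes positive in each. A block was also set for the first digits of the number in each column name, read here as an animal number. With it, Dlgap1 was -0.0067 and Shank1 -0.034 in HT against WT, and Dlg4 was -0.041 and Homer1 -0.038 in HM against HT. In HM against HT, HM replicate 4 was the 1 HM mouse, with HT replicates 1 and 2, that set the values, so they have no replicate in HM. In HM against WT this block put 2 scaffold genes under an unadjusted p of 0.05, Dlg2 (0.13) and Dlgap2 (0.24), with adjusted p-values of 0.593 and 0.630. Only WT replicates 1 and 2 and HM replicates 3 and 4 set those values. In HT against WT all HT mice and WT replicates 2, 3 and 4 did.

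With 1 mouse left out, fold changes in HT against WT ran from -0.0022 to 0.073 for Dlgap1, -2.9e-04 to 0.093 for Shank2, -0.040 to 0.067 for Shank1 and -0.0075 to 0.034 for Dlgap3. In HM against WT they ran from -0.028 to 0.0040 for Dlg1, -0.0065 to 0.10 for Shank1, -0.046 to 8.3e-05 for Dlgap3, -5.4e-05 to 0.074 for Dlg2 and -0.074 to 0.014 for Homer1. In HM against HT they ran from -0.0066 to 0.022 for Dlg3, -0.011 to 0.024 for Dlg4, -0.0053 to 0.048 for Shank2 and -0.014 to 0.073 for Homer1.

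The labels give all genotypes the same replicate numbers, which did not pair the mice: same-numbered deviations correlated between -0.066 and 0.087, and not every mouse correlated best with its own number. With a replicate block, 0 scaffold genes passed in each comparison, and Dlgap2 in HT against WT had an adjusted p of 0.757. Its fold change of 0.20 could not move, since each replicate number occurs once per genotype.

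Per kb of the longest coding transcript, mean levels were 895 for Dlg1, 1582 for Dlg2, 1289 for Dlg3, 3698 for Dlg4, 2118 for Dlgap1, 469.7 for Dlgap2, 2963 for Dlgap3, 2218 for Shank1, 879.8 for Shank2 and 1514 for Shank3. The share tests could hardly pass in groups of this size, and their count of 0 under other lengths and without each mouse says nothing on stability. With 4 mice a genotype, the intervals set the limit on what could be seen.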
